A study of Mus musculus with 9 samples.

Results

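Iron handling was followed through 10 genes in the immature erythroid cells of mouse bone marrow from which the corepressor gene Trim28 had been deleted. The genes were chosen by symbol: Fam132b (erythroferrone), Tfrc, Tfr2, Slc11a2 and Steap3 for uptake, Fth1 for storage, Aco1 and Ireb2 for control, and Hmox1 and Slc40a1 for heme breakdown and export. All 10 were found among the 23285 genes of the table, and all 10 had a completed test in each of the 3 comparisons. RNA sequencing had been done on 9 libraries, 3 per group, and each gene has 1 pooled value per group, in FPKM (fragments scaled to transcript length and to the mapped total). No spread between libraries and no depth per library can therefore be given, and each ± is the standard error implied by the deposited test statistic.

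All 3 groups came from mice of the C57BL/6 background with the genotype TRIM28(flox/flox), so the controls carry the floxed alleles too. FFa, the control, had no Cre and was sorted as CD71(hi)TER119+. KOa was sorted through the same gate from TRIM28(flox/flox):Mx1Cre mice and is described as modestly deleted, with 5 to 8% undeleted. KOb came from mice of that same mutant genotype, was sorted as CD71(hi)TER119-, and is described as severely deleted, with 1 to 4% undeleted. Mx1Cre is driven by an interferon-inducible promoter that acts in many cell types, and Cre was switched on by 5 injections of poly(I:C), with analysis 2 weeks later. Whether FFa mice received poly(I:C), the age of the mice, and whether each library is a separate mouse are not given in the labels, so the tests may measure partly technical spread. The gate and the degree of deletion change together in KOb, and Cre and deletion change together in both mutants, so these cannot be told apart.

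Trim28 itself had 25.5% of the FFa level in KOa and 18.3% in KOb. The erythroid identity of the groups showed in Klf1, Gata1, Epor, Slc4a1, Ermap and Rhag, with none at 0. Their summed level was 1335, 1247 and 901 FPKM in FFa, KOa and KOb. Slc4a1 made up most of each sum, at 867, 714 and 470 FPKM, and was called lower in KOb than in both other groups. All 6 had lower values in KOb than in KOa, and of these Epor was called there too. RNA of other cells was present as well: 12 granulocyte markers summed to 49302 FPKM in FFa, 16811 in KOa and 13637 in KOb. S100a8 made up most of each sum, at 34935, 14822 and 12078 FPKM. It did not pass in KOa (q = 0.106) and fell in KOb (q = 0.0486 in the authors' deposited table). Of the 12 markers, 6 fell and 1 rose in KOa, and 8 fell and 1 rose in KOb. Over all tested genes, 14.1% fell and 7.99% rose in KOa, and 15.2% and 12.8% in KOb. The one that rose was Mpo, the myeloperoxidase gene of early granulocyte precursors, from 8.15 FPKM to 21.7 and 27.3. Elane and Prtn3, protease genes of the same stage, did not pass. Their log2 ratios were 1.30 ± 5.75 and 2.27 ± 9.05 in KOa, and 1.92 ± 5.33 and 1.97 ± 9.12 in KOb. Both are listed on the same interval of chromosome 10 (79697305 to 80369637), and errors this wide give no direction. The part of these cells in the values of the iron genes was not tested. In such bulk samples, fewer cells of a type and less RNA per cell cannot be told apart.

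Erythroblasts take up more iron than almost any other cell, because each makes large amounts of heme. Transferrin carrying ferric iron binds transferrin receptor 1 (Tfrc, the CD71 used in the sort), the complex is internalised, STEAP3 reduces the iron in the endosome and DMT1 (Slc11a2) moves it into the cytosol. Surplus iron is stored in ferritin or exported by ferroportin (Slc40a1). IRP1 (Aco1) and IRP2 (Ireb2) bind hairpins called iron-responsive elements when iron is scarce: in a 5′ UTR they block translation, and in the 3′ UTR of Tfrc they protect the mRNA from decay. Erythroferrone is the hormone by which erythroblasts call for iron: it lowers hepcidin in the liver, which lets more iron into the blood.

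The hairpins are shown because they mark which of these mRNAs carry the element that IRP proteins are known to bind. Protein-coding transcripts of GENCODE M21 (GRCm38, the same assembly as the mm10 build named for the data) were searched on the sense strand for NNNNNCNNNNNCAGTGNNNNNNNNNNN, a pattern of 27 bases. The 5 bases beside the loop had to pair fully with their partners, and at least 4 of the 5 outer bases had to pair, G-T pairs allowed. A match in a UTR was found in 17 of 21877 genes (0.0777%). Among the 10 members these were Tfrc, Fth1 and Slc40a1, and among 58 other iron genes Ftl1 (ferritin light chain) and Alas2 (the first enzyme of erythroid heme synthesis). Capitals mark the loop of 6 bases.
Fth1, 5′ UTR (chr19:9982733-9982759, plus strand): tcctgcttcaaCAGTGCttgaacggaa
Ftl1, 5′ UTR (chr7:45459780-45459806, minus strand): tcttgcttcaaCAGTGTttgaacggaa
Slc40a1, 5′ UTR (chr1:45925466-45925492, minus strand): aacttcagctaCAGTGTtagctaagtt
Alas2, 5′ UTR (chrX:150547459-150547485, plus strand): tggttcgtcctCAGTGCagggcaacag
Tfrc site 1, 3′ UTR (chr16:32631220-32631246, plus strand): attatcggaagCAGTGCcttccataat
Tfrc site 2, 3′ UTR (chr16:32631599-32631625, plus strand): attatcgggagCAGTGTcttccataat
Tfrc site 3, 3′ UTR (chr16:32631664-32631690, plus strand): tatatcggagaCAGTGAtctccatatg
Tfrc site 4, 3′ UTR (chr16:32631711-32631737, plus strand): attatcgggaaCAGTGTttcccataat

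The sites of the ferritin chains Fth1 and Ftl1 differed in 2 of 27 bases, and the 4 Tfrc sites differed from each other in 2 to 10. No match in Slc11a2 or another member says only that this strict pattern was not found in the transcripts searched, and a match describes sequence, not binding.

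**Figure D1:**
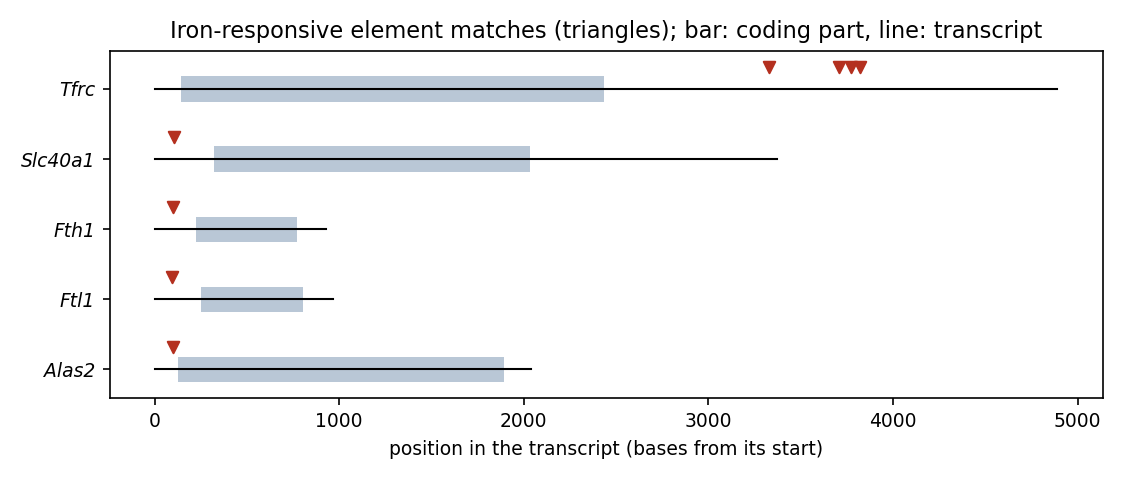
Positions of iron-responsive element matches (triangles) along 1 transcript per gene, in bases from its start, with the coding part as a bar. Tfrc carries 4 matches behind its coding part, while Fth1, Ftl1, Slc40a1 and Alas2 each carry 1 in front of it.

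The levels of the 10 genes spanned more than 3 orders of magnitude. Fth1 was the highest in every group, at 3004, 3801 and 3408 FPKM in FFa, KOa and KOb, with Tfrc the second. Aco1 was the lowest in every group, between 1.11 and 1.81 FPKM. Among genes of at least 1 FPKM, Fth1 ranked 21 of 8042, 12 of 7679 and 11 of 7957 in the 3 groups. Within the order of the 10 genes, Fam132b went from place 9 in FFa to 6 in KOa and 7 in KOb, and Tfr2 from 6 to 5 and 3. Because the values are pooled, it cannot be said which neighbours in this order differ beyond their spread.

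**Figure D2:**
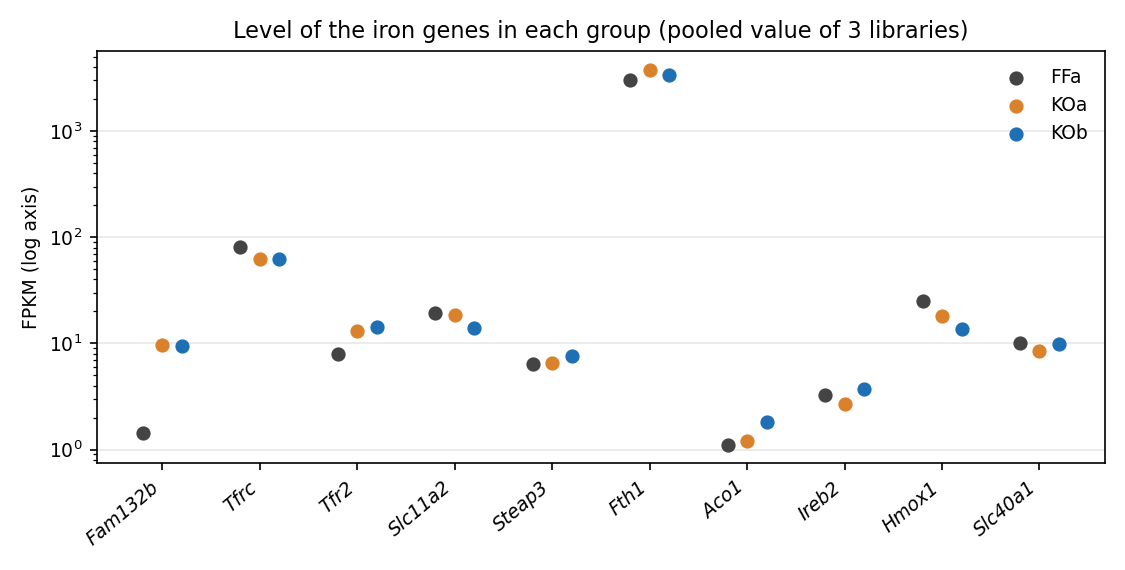
FPKM of the 10 iron genes on a log axis, 1 point per group, each the pooled value of 3 libraries. Fam132b lies at 1.42 in FFa, 9.63 in KOa and 9.52 in KOb, the widest gap between groups on this axis among the 10 genes.

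KOa against FFa compares mutant with control cells of the same gate. Of the 10 members, 2 rose and 0 fell (q below 0.05 in the authors' deposited table), where 22.1% of all 10761 tested genes were called, 7.99% as higher and 14.1% as lower. These were Fam132b, the hormone gene, and Tfr2, the gene of a receptor that senses iron-loaded transferrin. The median log2 ratio of the members was -0.02, beside -0.08 for all tested genes.

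KOb against FFa compares the TER119-negative mutant cells with the control. Here 3 members rose (Fam132b, Tfr2 and Aco1) and 2 fell (Hmox1 and Slc11a2), where 28.0% of 10584 tested genes were called, 12.8% as higher and 15.2% as lower. The median log2 ratio of the members was 0.19, beside -0.01 for all tested genes. These comparisons share the FFa libraries, so their agreement on a gene is not independent.

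KOb against KOa compares the mutant populations with each other. Only Aco1 of the 10 was called, as higher, where 16.2% of 10468 tested genes were called, 10.0% as higher and 6.19% as lower. The median was 0.06, beside 0.05 for all tested genes. For the other 9 members a difference between KOa and KOb did not pass the test.

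**Figure D3:**
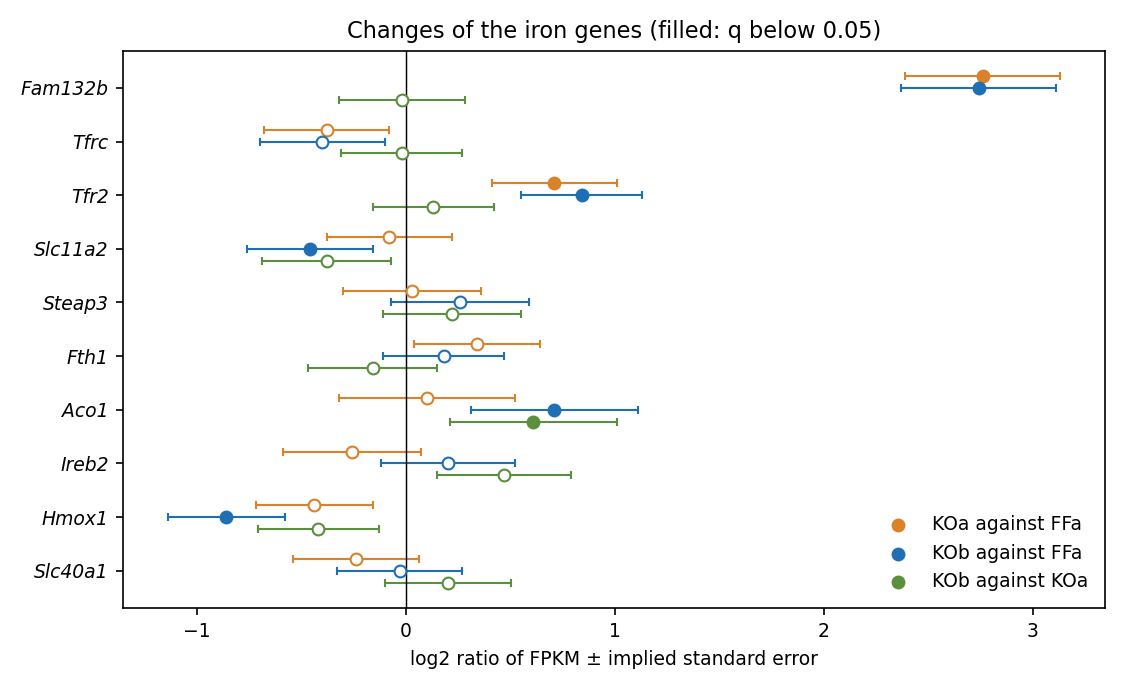
Log2 ratio of FPKM for each of the 10 genes in the 3 comparisons, with the implied standard error as bars and filled points where q was below 0.05. Fam132b stands at 2.76 and 2.74 against FFa and at -0.02 between the mutants, and the other log2 ratios lie between -0.86 and 0.84.

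Fam132b, the erythroferrone gene (chromosome 1, 91366430 to 91374217 of mm10), was at 1.42 FPKM in FFa, 9.63 in KOa and 9.52 in KOb. It was low in the control and high in both mutants, which were almost level. Its log2 ratio to FFa was 2.76 ± 0.37 in KOa and 2.74 ± 0.37 in KOb, that is 6.76-fold and 6.68-fold higher. Both q values were 0.000619, the smallest in the authors' deposited table. That value is a floor set by the smallest deposited p, and many other genes share it, Hmox1 and Tfr2 in KOb among them. KOb over KOa gave a log2 ratio of -0.02 ± 0.30 and a 95% interval from -0.60 to 0.57. The control level was low, and with 1 added to each FPKM the log2 ratio of KOa to FFa was 2.13. In rank, Fam132b rose from the 9.86th percentile of expressed genes in FFa to the 65.0th in KOa and the 64.9th in KOb. Among called genes that were higher and reached 1 FPKM in the mutant, it was 31 of 764 by log2 ratio in KOa and 39 of 1242 in KOb.

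The 250 bases before the RefSeq start of this gene (listed there as Erfe) are shown because it is the member with the largest change. They lie at chr1:91366180-91366429 of GRCm38, plus strand, and touch no annotated exon.
Fam132b upstream: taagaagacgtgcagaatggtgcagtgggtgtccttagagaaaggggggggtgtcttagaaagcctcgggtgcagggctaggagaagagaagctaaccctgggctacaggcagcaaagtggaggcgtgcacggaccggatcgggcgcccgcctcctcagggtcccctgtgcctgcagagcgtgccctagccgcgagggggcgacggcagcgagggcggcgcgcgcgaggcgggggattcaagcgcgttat
This window was rich in G and C, at 65.6%, beside a median of 52.4% over all promoters. It was searched on both strands for AGATAA and TGATAA (letters of GATA sites), TTCNNNGAA (STAT) and TGACNNNGC (antioxidant response elements), none of which it holds, so no base is in capitals. Such letters occur in 9.99%, 7.94%, 7.02% and 10.2% of 32851 promoter windows of that length. RefSeq promoters were matched for 7 of the 10 members, with 14 starts in all, and not for Slc11a2, Hmox1 and Slc40a1. The other matches were 1 TGATAA 61 bases before an alternative start of Tfr2 and 1 AGATAA, on the opposite strand, 45 bases before a start of Steap3. A window without these letters says nothing about the factor.

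The genes whose pattern was most like that of Fam132b were found by Euclidean distance over the 2 log2 ratios to FFa, among 7172 genes with at least 1 FPKM in all 3 groups. The nearest was Cdkn1a, the gene of the cell cycle inhibitor p21, at a distance of 0.15, with 1.15 FPKM in FFa, 8.38 in KOa and 7.18 in KOb. Stfa1 (0.31), Tmem40 (0.32), Stfa2 (0.40) and Cish (0.41) followed. Stfa1 and Stfa2 are close copies that can share reads, and Stfa2 was not called in KOb despite a log2 ratio of 2.34 ± 0.62. Cish, a feedback inhibitor of cytokine signalling through STAT5, went from 2.04 FPKM to 15.2 in KOa and 10.4 in KOb. Likeness over 3 pooled values is a description, and with a minimum of 5 FPKM, which leaves out Fam132b's own control level, 1 of these 5 genes was kept.

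Among the uptake genes, Tfrc, the main transferrin receptor gene (chromosome 16, 32608896 to 32632794), was at 81.4 FPKM in FFa, 62.5 in KOa and 61.8 in KOb. Both mutants were below the control, with log2 ratios of -0.38 ± 0.30 and -0.40 ± 0.30, but neither passed the test (q of 0.114 and 0.102 in the authors' deposited table). All cells had been sorted for high CD71, its protein, and the part of that gate in the mRNA level was not tested.

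Tfr2 (chromosome 5, 137569851 to 137587481), whose product also associates with the erythropoietin receptor in erythroblasts, was at 7.95 FPKM in FFa, 13.0 in KOa and 14.2 in KOb. It rose by 0.71 ± 0.30 in KOa (q = 0.00115) and by 0.84 ± 0.29 in KOb (q = 0.000619 in the authors' deposited table). Tfrc thus stood at 10.2 times the level of Tfr2 in FFa, 4.81 times in KOa and 4.36 times in KOb. The KOb to KOa log2 ratio of Tfr2 was 0.13 ± 0.29 and did not pass. The Tfr2 calls are lost under a normal reading of the deposited statistic, at adjusted p values of 0.153 in KOa and 0.0615 in KOb (Benjamini-Hochberg).

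Slc11a2 (chromosome 15, 100387900 to 100423055), the gene of the endosomal iron exporter DMT1, was at 19.5 FPKM in FFa, 18.4 in KOa and 14.1 in KOb. KOb was the lowest, and there it fell by 0.46 ± 0.30 on the log2 scale (q = 0.0411 in the authors' deposited table). The 95% interval of that ratio ran from -1.06 to 0.13, and under a normal reading of the statistic the adjusted p was 0.501 (Benjamini-Hochberg). The KOb to KOa ratio of -0.38 ± 0.31 did not pass. Rescaling all groups to the same sum of FPKM adds 0.91 to every log2 ratio of KOb to FFa. That of Slc11a2 then became 0.45, so its sign changed. Steap3 (chromosome 1, 120226416 to 120271082), the endosomal ferrireductase gene, was at 6.36, 6.51 and 7.60 FPKM in FFa, KOa and KOb and passed in no comparison.

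Storage was measured by Fth1 (chromosome 19, 9982703 to 9985092), the ferritin heavy chain that oxidises iron for storage. Its log2 ratio to FFa was 0.34 ± 0.30 in KOa and 0.18 ± 0.29 in KOb, neither past the test. The light chain gene Ftl1, from the other iron genes, went with it at 1330, 1512 and 1478 FPKM, and the Fth1 level was 2.26, 2.51 and 2.31 times that of Ftl1 in FFa, KOa and KOb. Both ferritin genes have processed pseudogenes, and the counting of reads shared with such copies is not stated in the sources used.

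Of the IRP genes, Aco1 (chromosome 4, 40143265 to 40199009), whose product is a cytosolic aconitase when iron is plentiful and IRP1 when it is not, was at 1.11 FPKM in FFa, 1.19 in KOa and 1.81 in KOb. It was higher in KOb than in both other groups, which were close to each other. The log2 ratio was 0.71 ± 0.40 against FFa (q = 0.0197) and 0.61 ± 0.40 against KOa (q = 0.0496 in the authors' deposited table). Neither call held under a normal reading of the statistic (adjusted p of 0.382 and 0.495, Benjamini-Hochberg), and the second was also lost when p-values were adjusted within that comparison alone (0.0676).

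Ireb2 (chromosome 9, 54863755 to 54912534), the gene of IRP2, which is controlled mainly by degradation of its protein, was at 3.23, 2.69 and 3.72 FPKM in FFa, KOa and KOb. It passed in no comparison, and the nearest was KOb against KOa at 0.47 ± 0.32 (q = 0.0589 in the authors' deposited table). The level of Ireb2 was 2.91, 2.27 and 2.05 times that of Aco1.

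Hmox1 (chromosome 8, 75093618 to 75100593), the inducible heme oxygenase that frees iron from heme, was at 24.8 FPKM in FFa, 18.2 in KOa and 13.6 in KOb. The order was FFa, KOa, KOb from high to low. Its log2 ratio was -0.44 ± 0.28 in KOa (q = 0.0609, not passed), and it fell by 0.86 ± 0.28 in KOb, to 55.0% of FFa (q = 0.000619 in the authors' deposited table). The difference between the mutants, -0.42 ± 0.29, did not pass (q = 0.0890 in the authors' deposited table). Under the rescaling that adds 0.91 to every ratio of KOb to FFa, that of Hmox1 became 0.05, so its sign changed as well.

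Slc40a1 (chromosome 1, 45908070 to 45925594), the gene of the iron exporter ferroportin, was at 10.1 FPKM in FFa, 8.56 in KOa and 9.86 in KOb. It passed in no comparison, with log2 ratios to FFa of -0.24 ± 0.30 and -0.03 ± 0.30.

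Both genes are also expressed by macrophages, which surround erythroblasts in the marrow. The 18 macrophage markers found in the table, which include neither gene, summed to 102, 70.4 and 40.8 FPKM in the 3 groups, and none was at 0 in any group. They fell in 7 of 17 tested in KOa and in 14 of 16 in KOb, with 0 rising, and median log2 ratios of -0.53 and -1.48. Against KOa they fell in 5 of 17 in KOb. The shares of all tested genes that fell were 14.1%, 15.2% and 6.19% in these 3 comparisons. Of the defining markers, Emr1 (F4/80) was at 2.12, 0.755 and 0.705 FPKM and Vcam1 at 4.91, 3.63 and 2.25. Vcam1 did not pass in KOa. Neither did C1qb, the highest marker of each group at 30.7, 25.1 and 14.1 FPKM. The KOa values of Cd5l, Mertk and Marco lay above FFa, at 114%, 105% and 337% of it, none called. Below 1 FPKM were 7, 10 and 10 of the 18 markers in FFa, KOa and KOb. The part of macrophages in the Hmox1 and Slc40a1 values was not tested.

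**Figure D4:**
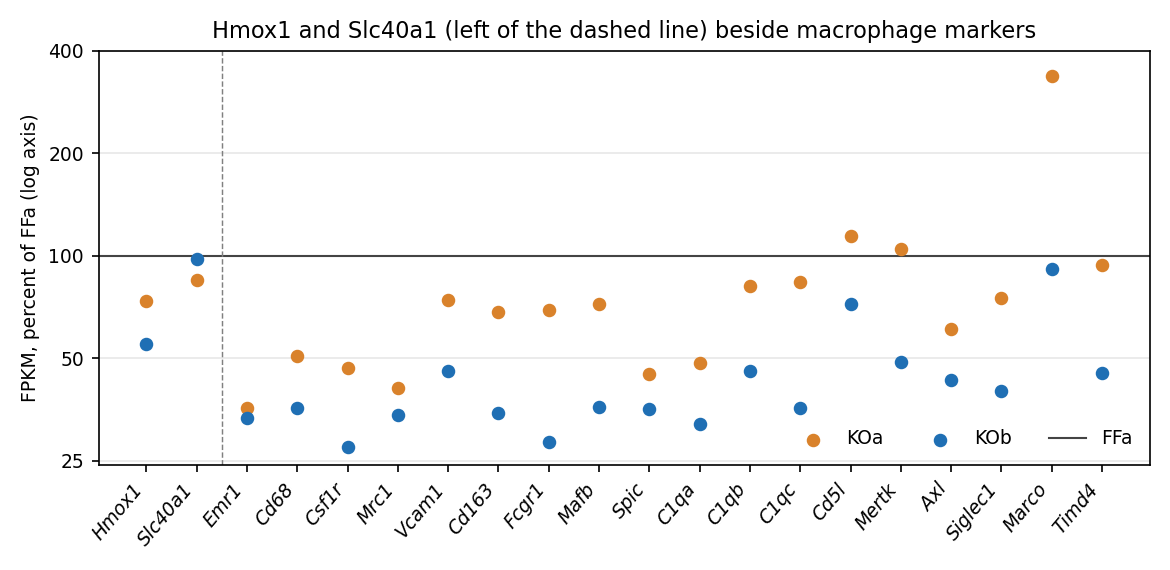
FPKM of Hmox1, Slc40a1 and 18 macrophage markers in KOa and KOb as a percent of FFa, on a log axis with FFa at 100. Hmox1 lies at 73.5% and 55.0%, Slc40a1 at 84.8% and 97.7%, and the KOb points of all 18 markers lie below 100. The KOa points of Cd5l, Mertk and Marco lie above 100.

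Of 62 other iron genes taken as a list, 58 were found in the table. In KOa 5 rose and 4 fell of 43 tested, with a median log2 ratio of -0.13, and in KOb 4 rose and 12 fell of 42, with a median of -0.11. Against KOa, KOb had 1 higher and 8 lower of 41. The shares of all tested genes called were 22.1%, 28.0% and 16.2%, and their medians were -0.08, -0.01 and 0.05. The 9 of 43 called in KOa are close to the share of all genes. Under a normal reading of the deposited statistic, 1, 9 and 3 of these genes were called, in place of 9, 16 and 9. The share of all tested genes under that reading is not given here.

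Among other uptake genes, the largest rise was that of Slc39a8, which encodes ZIP8, a transporter of zinc, manganese and iron. It went from 4.89 FPKM in FFa to 19.0 in KOa and 19.1 in KOb, a log2 ratio of 1.96 ± 0.32 in each, and 0.01 ± 0.30 between the mutants. Exoc6, an exocyst gene needed for recycling of transferrin receptors in erythroid cells, was at 13.9, 17.5 and 23.5 FPKM and rose in KOb by 0.76 ± 0.28. It was not among the genes picked by the naming rule and was chosen after its values were seen. Picalm, a clathrin adaptor gene needed for transferrin receptor uptake, fell by 0.72 ± 0.30 in KOa and by 1.15 ± 0.30 in KOb, from 98.3 FPKM to 59.6 and 44.3. The transferrin gene Trf fell as well, by 0.70 ± 0.38 and 1.08 ± 0.40, from 3.63 FPKM. Its 95% interval in KOa ran from -1.44 to 0.04. Snx3, a sorting nexin of the same recycling route, was at 105 to 127 FPKM and passed in no comparison.

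Of storage genes and iron chaperones, none of 4 tested passed in KOa, and in KOb Ncoa4 fell and the other 3 did not pass. The shares of all tested genes called were 22.1% in KOa and 28.0% in KOb. NCOA4 is the receptor that delivers ferritin to autophagy. Its level was 22.5 FPKM in FFa, 17.6 in KOa and 12.6 in KOb, a fall of 0.83 ± 0.30 against FFa and of 0.48 ± 0.30 against KOa. For the fall against KOa the 95% interval ran from -1.06 to 0.11. The iron chaperone gene Pcbp1 stood between 28.1 and 29.8 FPKM in the 3 groups.

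Of the 5 iron genes with a UTR match to the iron-responsive element, Alas2 was the only one called against FFa. It fell by 0.84 ± 0.40 in KOa and by 1.27 ± 0.39 in KOb, from 2082 FPKM to 1167 and 861. Tfrc, Fth1, Ftl1 and Slc40a1 passed in neither. Of all tested genes, 22.1% were called in KOa and 28.0% in KOb, so the count above is near those shares. Under a normal reading of the deposited statistic, no gene of the other iron list was called as lower in KOa. The KOa call of Alas2 was thus lost.

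Mitochondrial iron and iron-sulfur cluster genes included 1 that rose and 1 that fell of 16 tested in KOa, against 2 and 6 of 16 in KOb. Over all tested genes, 7.99% rose and 14.1% fell in KOa, against 12.8% and 15.2% in KOb. Iscu, the scaffold on which clusters are built, was at 285 FPKM in FFa, 232 in KOa and 106 in KOb, falling by 1.43 ± 0.23 in KOb. Slc25a37 (mitoferrin-1, the mitochondrial iron importer of erythroblasts) fell by 1.18 ± 0.37 in KOb, from 725 FPKM to 319. The cochaperone gene Hscb, at 39.8, 32.3 and 18.3 FPKM, did not pass in KOa (-0.30 ± 0.24) and fell by 1.12 ± 0.25 in KOb. Its partner Hspa9, a mitochondrial chaperone, went the other way, at 6.78, 7.33 and 16.4 FPKM, and rose by 1.28 ± 0.30 in KOb. Isca1, a cluster assembly gene, fell by 0.62 ± 0.27 in KOa, and Nfu1, which passes clusters to target proteins, rose by 0.76 ± 0.34.

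Of heme turnover and export genes, 3 rose and 0 fell of 8 tested in KOa, and 0 rose and 2 fell in KOb. Over all tested genes, 7.99% rose and 14.1% fell in KOa, and 12.8% and 15.2% in KOb. The 3 in KOa were Bach1, the heme-sensing repressor of Hmox1 (0.86 ± 0.33), the biliverdin reductase gene Blvra (0.60 ± 0.28) and the porphyrin exporter gene Abcg2 (0.47 ± 0.28). For Abcg2 the 95% interval ran from -0.08 to 1.01. Bach1 was at 2.02 FPKM in FFa, 3.66 in KOa and 2.84 in KOb, the last not past the test. In KOb the heme transporter gene Slc48a1 fell by 0.65 ± 0.28, from 122 FPKM to 77.7, and Blvrb fell by 0.51 ± 0.24. Of systemic regulators, 0 of 4 tested passed in KOa and 0 of 3 in KOb. Twsg1 was at 1.53, 1.74 and 2.07 FPKM, and the growth factor gene Gdf15 at 0.219, 0.585 and 0.720.

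**Figure D5:**
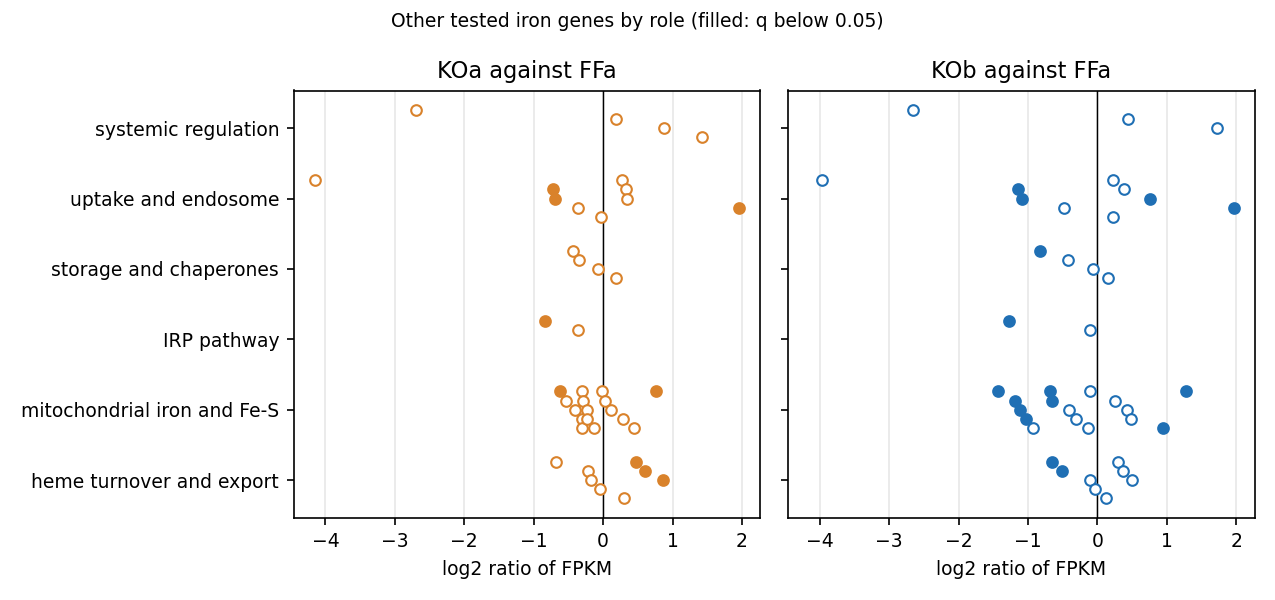
Log2 ratio of FPKM against FFa for the tested genes of the other iron list, by role, in KOa and KOb, with filled points where q was below 0.05. The filled point at 1.96 in both panels is Slc39a8, and in KOb the mitochondrial group holds 6 filled points below 0 and 2 above.

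Genes listed here under late erythroblast maturation moved in the same comparisons, and the stage at which each is expressed was not checked. Of 15 such genes, 7 fell and 1 rose in KOa, and 12 fell and 0 rose in KOb. Over all tested genes, 14.1% fell and 7.99% rose in KOa, and 15.2% and 12.8% in KOb. The 1 that rose was Ypel4, from 112 FPKM in FFa to 187 in KOa, and it fell to 65.2 in KOb. The summed level of the 15 was 5353, 3635 and 2608 FPKM in FFa, KOa and KOb. TER119 marks maturing erythroid cells and was the gate that set KOb apart. The part of maturation in the changes of iron genes was not tested.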

How the data were processed

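Per the labels' protocols, RNA was column-purified with DNase digestion and made into libraries by the NuGEN Encore Complete system. Reads had been processed against mm10 with Cuffdiff 2.1.1, TopHat2 2.0.8b and Bowtie2 2.1.0, per the submitters' processing notes. For annotation, scaling and strand use the labels name nothing. The deposited FPKM values are the authors', 1 per gene and group over 3 libraries, as are the deposited p-value, q-value, test statistic (a score) and log2 ratio, per the file headers. The ± values were computed here as the deposited log2 ratio divided by that statistic, without sign. Recomputing showed the authors' q-value to be a Benjamini-Hochberg adjustment over 31813 tested results of the 3 comparisons, with a largest difference of 5.27e-07. A gene was called at q below 0.05 with a completed Cuffdiff test. Python 3.11.15, pandas 2.3.3 and scipy 1.17.1 were used, and the adjustment was tested on simulated data.

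The members and gene lists were chosen with earlier results of these data known. A few listed genes are not reported here, and the counts and sums leave them out. All members were named. Per role of the other iron list and comparison, up to 3 called genes of largest change were named, or the 2 of highest FPKM where none passed. The alternatives were a normal reading of the statistic, adjustment within a comparison, q below 0.01, an FPKM minimum of 1, pseudocounts of 1 and 0.1, and 3 other scalings. Values per library were not used, so the depth is unknown and neither intervals from counts nor left-out libraries are given. Depth and the number of libraries limit the precision of low genes such as Aco1, and of Fam132b in FFa.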

Additional observations from a re-analysis of the deposited data

Results flagged for a closer look

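For 8 named iron genes the change against FFa differed between the mutant groups by the test of KOb against KOa itself. Of all tested genes, 16.2% were called in that comparison. Called genes were named first, so the 8 are no share of the iron genes. Of all 10 members 1 was called, and of 41 other iron genes tested 1 was higher and 8 were lower. Under a normal reading of the deposited statistic fewer of these iron genes passed, and Aco1 did not. The log2 ratio of KOb over KOa was 0.61 for Aco1 and 1.16 for the chaperone gene Hspa9. It was -1.13 for Iscu, -0.82 for Hscb, -0.64 for Slc25a37, -0.61 for Slc48a1, -0.56 for Abcg2 and -0.48 for Ncoa4. Abcg2 was at 45.0 FPKM in FFa, 62.1 in KOa and 42.1 in KOb, so KOb lay near the control and KOa above it. Iscu, Hscb and Hspa9, which act together in iron-sulfur cluster assembly, did not pass in KOa against FFa.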

How the results depend on the processing

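No paired analysis was possible because the deposited table holds 1 pooled value per group, and for that reason no library could be left out. Under a normal reading of the deposited statistic (Benjamini-Hochberg), the members called were 1 in KOa, 2 in KOb and 0 in KOb against KOa, in place of 2, 5 and 1, and the other iron genes called were 1, 9 and 3, in place of 9, 16 and 9. At q below 0.01, 3 members were called in KOb and 0 in KOb against KOa, and 5 other iron genes in KOb against KOa. Adjusted within the comparison alone, 0 members were called in KOb against KOa. In that Cuffdiff comparison 4 members had an unadjusted p below 0.05, and 0 with the normal reading. Re-adjustment over genes of at least 1 FPKM altered no member's call. The shares of all tested genes called under these other settings are not given here. Whether the lower counts are particular to iron genes therefore cannot be said.

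Fam132b kept its calls against FFa under each of these settings, and Hmox1 its call in KOb. Rescaling to the same sum of FPKM, which globin genes dominate, added 0.91 to every log2 ratio of KOb against FFa, the median gene included. Slc11a2 then stood at 0.45 and Hmox1 at 0.05, so both called falls changed sign under this scaling. Falls of other iron genes in KOb smaller than 0.91, such as those of Ncoa4, Slc48a1 and Blvrb, change sign too. Larger ones, such as that of Iscu, do not. Without globin genes, S100a8 and S100a9 the shift was 0.45 in KOa and 0.41 in KOb, and no called member turned direction. Centring on the median gene moved no member's ratio by more than its standard error. A pseudocount of 0.1 moved none either, while a pseudocount of 1 moved 2. The ratio of Fam132b in KOa to FFa went from 2.76 to 2.67 with 0.1 and to 2.13 with 1.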

Other observations

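Secreted proteins that bind iron or its carriers outside erythroblasts were read in the same libraries through Ltf and Lcn2 of the granulocyte markers, a list in which Mpo rose in both mutants. Ltf, which encodes lactoferrin, an iron-binding protein of neutrophil granules, went from 127 FPKM in FFa to 67.9 and 75.0 in the mutants KOa and KOb. It fell against FFa by 0.90 in KOa and by 0.76 in KOb on the log2 scale. Lcn2, whose product lipocalin-2 binds bacterial siderophores, went from 1150 FPKM to 895 and 609. Its log2 ratio of -0.36 in KOa did not pass, and it fell by 0.92 in KOb. The level of Ltf exceeded that of Tfrc in every group, and that of Lcn2 did too, in cells sorted as immature erythroid.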
